A study of Homo sapiens with 3 samples.

Results

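A group of 10 genes of the differentiated intestinal epithelium, KRT20, LGALS4, VIL1, CDX1, CDX2, CDH17, FABP1, PHGR1, CEACAM5 and CEACAM6, were examined in DLD1 cells with and without a BEX2 knockout. The 10 genes were selected by symbol from the 60504 genes of the expression table, with no threshold on their values. The values of these libraries were already known when the genes were selected, so their differences between the libraries are given as a description, with no test of any member, and support nothing. DLD1 is an established human colorectal cancer cell line, and BEX2 encodes a small X-linked protein linked to signalling and transcription. RNA-Seq of total RNA was available for 1 library of DLD1 control cells (labelled wild type) and 2 libraries of BEX2-/- DLD1 cells, made by CRISPR/Cas9 editing and labelled KO1 and KO2, here called clone 1 and clone 2. No treatment or time point is labelled, and the study compared BEX2 knockout cells with control cells to ask which genes differ in expression.

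The labels number the knockout libraries and do not say whether they come from separate clones or from separate cultures of 1 edited line. They are called clones here because the study's methods describe clones screened by sequencing, and every value of clone 1 against clone 2 carries this doubt. A ratio between 2 libraries therefore has no replicate check, and a difference between a knockout library and the control cannot be told apart from one between any edited clone, or any culture, and the parent line. The level is given as FPKM, the fragments of a gene scaled to its exon length and to the depth of the library. For most low values, and for all 10 members, FPKM could be turned back into whole reads, and the depths recovered in this way were 47458850 reads for the control, 35593990 for clone 1 and 47722377 for clone 2. The intervals below are exact 95% intervals of the recovered reads and cover counting error only. BEX2 itself was listed at 0 FPKM in all 3 libraries, where 3 reads would be 0.0535 to 0.0717 FPKM, so the target gene checks no label. All 8 general epithelial markers, such as EPCAM (265, 282 and 220 FPKM in the control, clone 1 and clone 2), had a mean of at least 1 FPKM. Of 17 markers of fibroblasts, immune cells, endothelium and hepatocytes, 7 were listed at 0 in every library and the highest was PDGFRB at 0.602 FPKM in clone 1. The summed level of the 6 fibroblast markers was 0.136 FPKM in the control, 0.634 in clone 1 and 0.129 in clone 2, and its part in the results was not tested.

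The intestinal epithelium is renewed from stem cells at the crypt base, whose daughters become absorptive or secretory cells as they move towards the lumen. CDX1 and CDX2 are homeobox transcription factors that set intestinal identity, and HNF4A acts with them on genes of the mature cell. Colorectal cancers keep parts of this programme to different degrees, and KRT20, CDX2, CDH17 and CEACAM5 are used in pathology to recognise a colorectal origin.

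Sequence upstream of the start site was read for the members that RefSeq places in a table of promoters on GRCh38.p14, which held 6 of the 10 (CDX2, KRT20, CEACAM5, CEACAM6, LGALS4 and FABP1). The stretches of KRT20 (chr17:40885243-40885492, minus strand) and FABP1 (chr2:88128117-88128312, minus strand) are shown because these genes, a keratin and a lipid carrier, had large ratios between the clones. They are written 5′ to 3′ and end at the start site or, for FABP1, before the first base of an exon annotated in GENCODE 29. Capitals mark the letters TTTATNG, a core bound by CDX proteins, and CAAAG, a core of the HNF4A site, on either strand.
KRT20: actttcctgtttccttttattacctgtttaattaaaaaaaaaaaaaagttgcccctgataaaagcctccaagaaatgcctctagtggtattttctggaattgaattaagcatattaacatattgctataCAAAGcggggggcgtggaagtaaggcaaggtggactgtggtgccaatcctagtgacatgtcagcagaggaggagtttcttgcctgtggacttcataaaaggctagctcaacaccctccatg
FABP1: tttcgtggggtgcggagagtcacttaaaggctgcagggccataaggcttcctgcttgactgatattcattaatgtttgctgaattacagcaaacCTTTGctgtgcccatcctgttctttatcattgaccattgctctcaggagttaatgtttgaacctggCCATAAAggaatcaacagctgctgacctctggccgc

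The FABP1 stretch held CCATAAA, which is TTTATGG on the other strand, and CTTTG, which is CAAAG on the other strand. The KRT20 stretch held CAAAG and no match to the CDX core. Over the 250 bases before the RefSeq start, 2 of the 6 members (CDX2 and FABP1) held the CDX core, against 8.9% of 35116 promoters in the table and 5.6% of the 11950 promoters of genes with a mean of at least 1 FPKM. The HNF4A core was held by 4 of the 6 (CDX2, KRT20, LGALS4 and FABP1), against 42.1% and 34.4%. TATAAA, searched after the other letters had been seen and overlapping a second CDX core of FABP1, was held by 2 of the 6 (FABP1 and CEACAM6), against 10.7% and 5.4%. For CDX2 and LGALS4 the window lies inside the annotated gene, and its first base is already annotated as exon. The matches of these genes are thus upstream of the RefSeq start but not of the annotated gene. The TATAAA of FABP1 also lies past the first annotated exon base of its window. All of these matches describe letters in a short window and say nothing of binding.

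CEACAM5 (chr19:41708376-41708584, plus strand) and CEACAM6 (chr19:41755280-41755420, plus strand) lie side by side, and their upstream stretches are shown because the 2 genes had similar ratios of clone 1 to the control. Both are written 5′ to 3′ and end before the first exon base that GENCODE 29 places in the 250 bases before the RefSeq start, which for CEACAM6 lies inside the annotated gene, downstream of the start of a longer transcript. Capitals stand for runs of at least 12 aligned bases that are identical.
CEACAM5: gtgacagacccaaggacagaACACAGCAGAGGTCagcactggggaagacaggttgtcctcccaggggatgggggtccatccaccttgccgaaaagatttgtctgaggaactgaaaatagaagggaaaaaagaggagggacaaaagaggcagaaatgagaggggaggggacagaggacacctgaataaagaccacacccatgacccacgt
CEACAM6: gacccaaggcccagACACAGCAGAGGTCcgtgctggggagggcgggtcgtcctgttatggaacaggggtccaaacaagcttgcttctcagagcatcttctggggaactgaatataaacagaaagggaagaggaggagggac
In the alignment of these stretches, 100 of 134 paired bases were identical (74.6%), with 1 identical run of 14 bases. The close sequence of the 2 genes extends to their transcripts. Of the stretches of 50 bases in CEACAM5 transcripts, 16.3% also occurred in transcripts of other genes (AC243967.1, CEACAM3, CEACAM1 and CEACAM6), and 7.0% of those in CEACAM6 did, so some reads of these genes could be assigned to a relative. For each of the other 8 members the share was at most 0.5%.

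Of the transcription factors, CDX2 differed by less than 2-fold between any pair of libraries and CDX1 was low in all 3. CDX2 (ENSG00000165556, chr13:27962137-27971139 on the minus strand, GRCh38, GENCODE 29, as for every gene position below) had 33.3 FPKM in the control, 43.2 in clone 1 and 24 in clone 2, from 4716 to 6512 reads. CDX2 was thus 1.3-fold higher in clone 1 than in the control (95% interval 1.25 to 1.34) and 1.39-fold lower in clone 2 (1.34 to 1.44). CDX1 (ENSG00000113722, chr5:150166795-150184558, plus strand) was low throughout, with 0.455 FPKM in the control, 0.815 in clone 1 and 0.0834 in clone 2, which were 38, 51 and 7 reads. The ratio of clone 1 to the control was 1.79 (1.15 to 2.8), and CDX1 was 5.46-fold lower in clone 2 than in the control (2.41 to 14.5). CDX1 was the only member below a mean of 1 FPKM, the level at which a gene entered the counts below.

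KRT20 and VIL1, both of the cytoskeleton, were higher in clone 1 and lower in clone 2 than in the control. KRT20 (ENSG00000171431, chr17:40875941-40885227, minus strand) encodes keratin 20, an intermediate filament protein of mature enterocytes and goblet cells. It had 18.9 FPKM in the control (1657 reads), 117 in clone 1 (7696 reads) and 0.931 in clone 2 (82 reads). The level in clone 1 was 6.19-fold that of the control (5.87 to 6.53), the level in clone 2 was 20.3-fold lower than the control (16.3 to 25.7), and the clones were 126-fold apart. VIL1 (ENSG00000127831, chr2:218419092-218453295, plus strand) encodes villin, which bundles actin in microvilli. VIL1 had 3.61 FPKM in the control (1185 reads), 13.2 in clone 1 (3253 reads) and 0.221 in clone 2 (73 reads). That was 3.66-fold higher in clone 1 (3.42 to 3.92) and 16.3-fold lower in clone 2 (12.9 to 21), with 59.7-fold between the clones (47.4 to 76.4). VIL1 overlaps USP37 on the opposite strand, and reads of the 2 genes cannot be told apart there unless the counting used strand, which the sources used here do not state.

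The adhesion and surface proteins CDH17, CEACAM5 and CEACAM6 were each over 2-fold higher in clone 1. CDH17 (ENSG00000079112, chr8:94127171-94217303, minus strand), the liver-intestine cadherin, had 34.9 FPKM in the control, 78.7 in clone 1 and 29.5 in clone 2, from 5492 to 10934 reads. Its level was 2.26-fold higher in clone 1 (2.19 to 2.33) but only 1.18-fold lower in clone 2 (1.14 to 1.23), so clone 2 and the control were close for this cadherin. CEACAM5 (ENSG00000105388, chr19:41708585-41729798, plus strand), the carcinoembryonic antigen, had 0.742 FPKM in the control (118 reads), 18.3 in clone 1 (2184 reads) and 0.119 in clone 2 (19 reads). This made 24.7-fold more in clone 1 than in the control (20.5 to 30) and 6.25-fold less in clone 2 (3.83 to 10.7). CEACAM6 (ENSG00000086548, chr19:41750977-41772208, plus strand), a membrane-anchored relative, had 0.242 FPKM in the control (35 reads), 6.27 in clone 1 (681 reads) and 0.0137 in clone 2 (2 reads). Clone 1 was 25.9-fold higher than the control (18.5 to 37.6), and the 2 reads of clone 2 left the ratio of control to clone 2 at 17.6 with an interval from 4.52 to 151.

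LGALS4, FABP1 and PHGR1, a lectin, a lipid carrier and a small protein of less known role, were each higher in clone 1 and lower in clone 2 than in the control. LGALS4 (ENSG00000171747, chr19:38801671-38813364, minus strand) encodes galectin-4, a lectin of the apical membrane of enterocytes. LGALS4 had 2.28 FPKM in the control (286 reads), 60.2 in clone 1 (5664 reads) and 0.119 in clone 2 (15 reads). The gene was 26.4-fold higher in clone 1 (23.4 to 29.8), 19.2-fold lower in clone 2 (11.4 to 34.7) and 506-fold apart between the clones (307 to 905). FABP1 (ENSG00000163586, chr2:88122982-88128116, minus strand), the liver fatty acid-binding protein also made by enterocytes, had 0.171 FPKM in the control (20 reads) and 16.7 in clone 1 (1464 reads). FABP1 was listed at 0 in clone 2, where 3 reads would be 0.0255 FPKM and the upper 95% limit was 3.69 reads, or 0.0313 FPKM. Clone 1 was 97.6-fold higher than the control (63 to 160). With clone 2 set at 3 reads, it was 6.7-fold lower than the control and the clones were 654-fold apart. The lower 95% limits, which also cover the counting error of the other library, were 4.96-fold and 531-fold. PHGR1 (ENSG00000233041, chr15:40351033-40356434, plus strand) encodes a small protein rich in proline, histidine and glycine that is found in the gut epithelium. PHGR1 had 32.6 FPKM in the control (1455 reads), 284 in clone 1 (9502 reads) and 3.07 in clone 2 (138 reads), which was 8.71-fold higher (8.24 to 9.21) and 10.6-fold lower (8.9 to 12.7). The FPKM of FABP1 and PHGR1 divided reads by all annotated exons, 2470 and 941 bases, where the main coding transcripts are 555 and 436 bases long, so their levels against other genes would be higher per coding transcript, while ratios between libraries would not move.

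In all 10 genes the control lay between the clones, with clone 1 highest. Among the 11675 genes whose control level and clone mean averaged at least 1 FPKM, 2787 (23.9%) had that order. The summed level of the 10 genes was 127 FPKM in the control, 638 in clone 1 and 58 in clone 2. In bulk RNA a larger share of cells of one type and more RNA per cell cannot be told apart, so the sums do not show whether more cells or each cell carried the transcripts.

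The order of the genes by level also differed between the libraries. In the control, CDH17 (34.9 FPKM, 34.1 to 35.8), CDX2 (33.3, 32.5 to 34.1) and PHGR1 (32.6, 30.9 to 34.3) led. The intervals of CDH17 and CDX2 met at 34.1 and that of PHGR1 overlapped both. Whether these 3 differ beyond counting error was not tested. KRT20 followed at 18.9 FPKM (18 to 19.8), below all 3. In clone 1, PHGR1 (284 FPKM) and KRT20 (117 FPKM) led, ahead of CDH17 (78.7), LGALS4 (60.2) and CDX2 (43.2). In clone 2, CDH17 (29.5 FPKM) and CDX2 (24) led and PHGR1 followed at 3.07, with every other member below 1 FPKM. LGALS4 and CEACAM5 had the same level in clone 2, 0.119 FPKM each, and CDX1 at 0.0834 FPKM (0.0335 to 0.172) was not apart from either beyond counting error.

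Over the 10 genes, the log2 ratio of clone 1 to the control after adding 1 FPKM ran from 0.32 (CDX1) to 4.22 (LGALS4), with a median of 2.56, against 0.037 for the 11675 genes. Of the 10, 8 were at least 2-fold higher in clone 1 on this scale, all but CDX1 and CDX2, against 1.06% of the 11675 genes. This contrast was known when the members were selected, so nothing is read from the count, and the same holds for the counts that follow. CEACAM5, CEACAM6 and FABP1 had a mean of at least 1 FPKM only through clone 1.

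In clone 2 against the control, the log2 ratio ran from -3.37 (KRT20) to -0.23 (FABP1), with a median of -0.55 against -0.013 for all genes. On this scale 4 of the 10 (KRT20, VIL1, LGALS4 and PHGR1) were at least 2-fold lower in clone 2, against 0.737% of the 11675 genes. FABP1, CEACAM5, CEACAM6 and CDX1 had less than 1 FPKM in the control, where the added 1 FPKM compresses a decrease, and their ratios without it are those given gene by gene above. Between the clones, 8 of the 10 were at least 2-fold lower in clone 2 than in clone 1 (1.68% of all genes) and 0 were higher (2.51% of all genes). The log2 ratio of clone 2 to clone 1 had a median of -3.82 over the 10 genes, against -0.054 for all genes, and reached -6.13 for PHGR1, -5.93 for KRT20 and -5.77 for LGALS4.

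The ratios of both clones use the same control library. KRT20, VIL1, LGALS4 and PHGR1 passed 2-fold upwards in clone 1 and downwards in clone 2, a description that held for 12 of the 11675 genes (0.103%). None of the 10 was at least 2-fold away from the control in the same direction in both clones, against 0.325% of all genes.

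**Figure D1:**
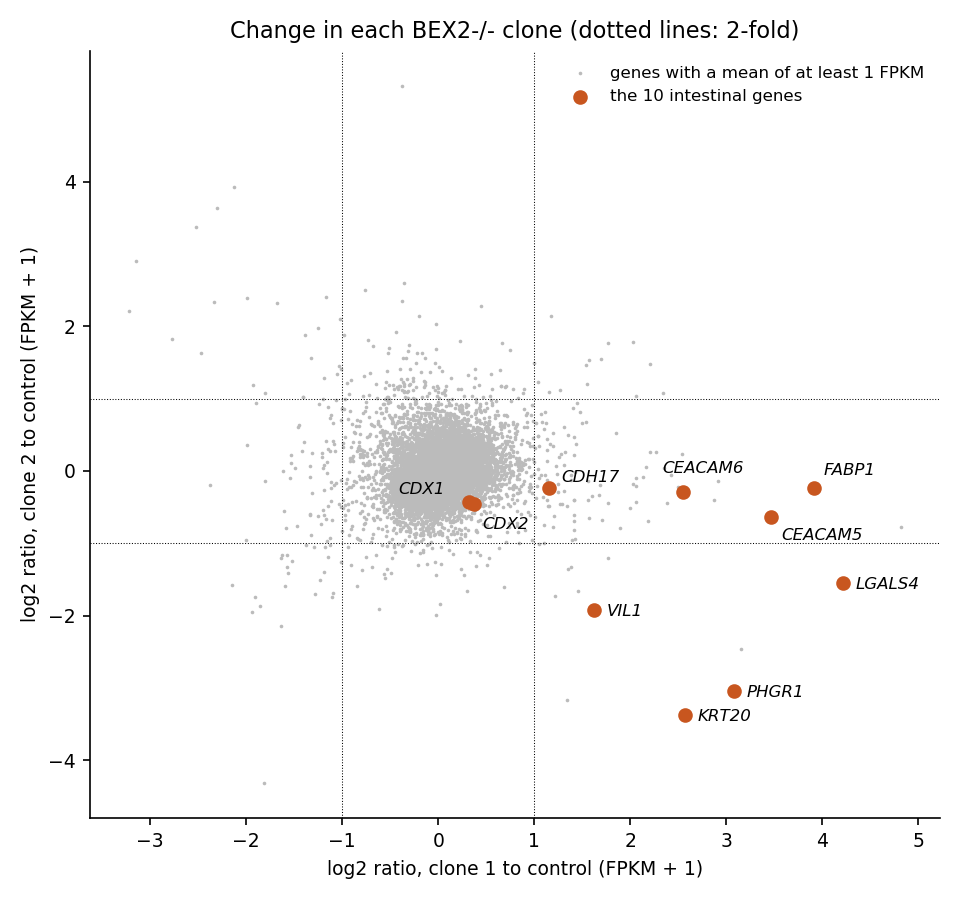
Log2 ratio to the control of clone 1 (x axis) and clone 2 (y axis) after adding 1 FPKM, for the 11675 genes with a mean of at least 1 FPKM (grey) and the 10 intestinal genes (orange, labelled), with dotted lines at 2-fold. KRT20 (2.57, -3.37), PHGR1 (3.08, -3.04), LGALS4 (4.22, -1.55) and VIL1 (1.62, -1.92) lie in the lower right corner, while CDX1 (0.32, -0.43) and CDX2 (0.37, -0.46) lie inside the lines.

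The mean of the 2 clones, with its spread, was as follows. KRT20 had 59 ± 82.2 FPKM in the clones (mean ± SD, n = 2) against 18.9 in the control, LGALS4 had 30.1 ± 42.5 against 2.28, and PHGR1 had 143 ± 198 against 32.6. CDX2 had 33.6 ± 13.6 against 33.3, CDH17 had 54.1 ± 34.8 against 34.9, and VIL1 had 6.71 ± 9.18 against 3.61. The low members followed, with 9.21 ± 12.9 against 0.742 for CEACAM5, 3.14 ± 4.42 against 0.242 for CEACAM6, 8.33 ± 11.8 against 0.171 for FABP1 and 0.449 ± 0.517 against 0.455 for CDX1. The SD of the clones exceeded their mean for every member but CDX2 and CDH17. Since the control lay between the clones in each gene, the distance from the clone mean to the control could not reach 1 SD, and nothing is read from it. In the fit of the clones against the control with limma, which has 1 residual degree of freedom and takes the control to vary as the clones do, 0 of 11675 genes (0%) had an adjusted p under 0.05, and 139 had an unadjusted p under 0.05. No p is given for the members in this fit, since the contrast was known when they were selected and genes that differ in opposite ways in the clones could not be called by it.

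The other genes of the intestinal programme were counted in lists chosen with earlier results of these data known. Of 30 genes of absorptive cells, 9 were listed at 0 in all libraries and 6 had a mean of at least 1 FPKM, of which 4 were at least 2-fold higher in clone 1 than in the control (1.06% of all genes) and 5 at least 2-fold lower in clone 2 than in clone 1 (1.68% of all genes). GPA33, DPP4 and SLC51B reached that mean only through clone 1, so that their count is no result about the list. The largest difference between the clones was that of GPA33, a surface antigen of the intestinal epithelium, with 0.606 FPKM in the control, 10.8 in clone 1 and 0.216 in clone 2. DPP4, a brush border peptidase, had 1.15, 6.34 and 0.581 FPKM, and SLC51B, a subunit of the basolateral bile acid transporter, had 0.224, 4.9 and 0.468 FPKM. For SLC51B these were 10, 164 and 21 reads, too few to set clone 2 above the control without an interval, which was not computed. The median for clone 2 against clone 1 on the log2 scale was -0.02 over all 30 genes, most of which were at or near 0, and -1.59 over the 6 with a mean of at least 1 FPKM.

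None of the 17 genes of brush border structure was both above a mean of 1 FPKM and 2-fold apart in any comparison. Among all genes, 1.06% were 2-fold higher in clone 1 and 0.737% lower in clone 2 than in the control. Between the clones, 1.68% were lower and 2.51% higher in clone 2, so this 0 is no result about the list. Of the 7 above a mean of 1 FPKM, those with the largest log2 ratio between the clones were EPS8 (9.42, 11.3 and 17.7 FPKM in the control, clone 1 and clone 2), an actin-capping protein of microvilli, BAIAP2L1 (11, 10.1 and 14.6) and SLC9A3R1 (40.3, 40.5 and 32.4), a scaffold below the apical membrane. Below that mean, CDHR5 had 0.228, 1.8 and 0.0271 FPKM (42, 248 and 5 reads). MYO7B had 0.0239, 0.846 and 0.00714 FPKM (10, 265 and 3 reads), and both were named after their values were seen. Clone 1 was highest and clone 2 lowest in 5 of the 17 genes, which include genes below that mean. The order held in 1 of the 7 genes above it, against 23.9% of the 11675 genes with a mean of at least 1 FPKM. With so few genes, nothing is read from this order.

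Among 19 further intestinal transcription factors, 11 had a mean of at least 1 FPKM. After 1 FPKM was added, 0 of the 11 were 2-fold away from the control in either clone. As 1.06% of all genes were 2-fold higher in clone 1 and 0.737% lower in clone 2, this 0 is no result about the list. Without the added FPKM, PPARG was over 2-fold lower and FOXA2 over 2-fold higher in clone 2 than in the control. PPARG, a nuclear receptor of lipid metabolism, had 9.7 FPKM in the control, 18.1 in clone 1 and 4.37 in clone 2. With 1 FPKM added, it was the only one of the 11 at least 2-fold lower in clone 2 than in clone 1 (1.68% of all genes). FOXA2 had 1.31, 0.853 and 2.7 FPKM and KLF5 had 35.1, 53.2 and 27.1 FPKM. HNF4A, the partner of the CDX factors, had 4.6, 7.91 and 5.06 FPKM.

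Genes of secretory cells were few at these levels. Of 12 goblet cell genes, 4 had a mean of at least 1 FPKM. After 1 FPKM was added, 2 of the 4 were at least 2-fold higher in clone 1 than in the control (1.06% of all genes). On the same scale 2 were at least 2-fold lower in clone 2 than in the control (0.737%) and 3 lower than in clone 1 (1.68%). AGR2, the most abundant of the 4, had 117 FPKM in the control, 191 in clone 1 and 137 in clone 2, above the control in both clones. REG4, a secreted lectin, had 7.48 FPKM in the control, 74.3 in clone 1 and 0.546 in clone 2. TFF3, the trefoil peptide of goblet cell mucus, had 13, 35.7 and 6.21 FPKM, and SPINK4 had 2.26, 3.39 and 0.449 FPKM. Of 6 Paneth cell genes only PLA2G2A, a secreted phospholipase, had a mean of at least 1 FPKM, with 1.89, 8.87 and 0.249 FPKM, while DEFA5, DEFA6 and LYZ were listed at 0. None of 10 enteroendocrine genes reached that mean, and 6 of them were listed at 0 in every library.

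Of 18 stem cell genes, 12 had a mean of at least 1 FPKM. After 1 FPKM was added, 0 of the 12 were 2-fold away from the control in either clone. As 1.06% of all genes were 2-fold higher in clone 1 and 0.737% lower in clone 2, this 0 is no result about the list. Without the added FPKM, genes such as LGR5 in clone 1, EPHB3 in clone 2 and TNFRSF19 in clone 1 passed 2-fold. LGR5, the receptor that marks crypt base stem cells, had 7.51, 15.5 and 6.25 FPKM, and EPHB3 had 6.51, 7.13 and 2.82 FPKM. With 1 FPKM added, both were at least 2-fold lower in clone 2 than in clone 1 (1.68% of all genes). TNFRSF19 had 8.5, 4.01 and 9.46 FPKM and was at least 2-fold higher in clone 2 than in clone 1 (2.51% of all genes). Between the clones, the log2 ratio had a median of -0.00 over the 18 stem cell genes and -0.17 over the 8 general epithelial genes, whose largest difference was that of CLDN3 (9.96, 10 and 4.98 FPKM). Among 6 squamous epithelial genes only KRT10 (8, 6.98 and 5.8 FPKM) had a mean of at least 1 FPKM. The 17 lists that hold no member have 176 different genes. After 1 FPKM was added, 0 of these were at least 2-fold away from the control in the same direction in both clones. Among all genes that share was 0.325%, so the 0 is no result about the lists. REG4 and PLA2G2A were at least 2-fold higher in clone 1 and lower in clone 2 (0.103% of all genes).

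The genes whose pattern over the 3 libraries was nearest to that of a member were found by the distance between their 2 log2 ratios to the control. Nearest to KRT20 were REG4 (distance 1.08), TFF1 (1.24), S100P (2.04), PRR15L (2.12) and PLA2G2A (2.30). TFF1, a trefoil peptide of gastric mucus, had 70.9 FPKM in the control, 182 in clone 1 and 7.04 in clone 2, and S100P, a calcium-binding protein, had 43.8, 122 and 13.2 FPKM. Among the genes nearest to LGALS4 were REG4 (1.40), GPA33 (1.77), RF00100 (1.92) and PSCA (2.15). PSCA, a surface antigen anchored in the membrane, had 0.645 FPKM in the control, 7.55 in clone 1 and 0.214 in clone 2. Nearest to the median of the 10 were PSCA (0.21), RBP4 (0.33), GPA33 (0.35), AL158206.1 (0.40) and MIR3687-1 (0.51). RBP4, a retinol carrier, had 1.19, 11.4 and 0.882 FPKM. The search covered genes with a mean of at least 1 FPKM, which PSCA, GPA33, RF00100 and MIR3687-1 reached only through clone 1. Their likeness is thus partly set by that filter. With only 3 libraries such a likeness is a description of these libraries.

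The neighbours of the members on their chromosomes were listed after the values had been seen. Within 500 kb of each member's start, between 3 (FABP1) and 22 (PHGR1) other genes had a mean of at least 1 FPKM, and the median of the log2 ratio of clone 2 to clone 1 ran from -0.21 near CDH17 to 0.29 near CDX1. The neighbours were counted at 2-fold after 1 FPKM was added. Apart from CEACAM5 and CEACAM6, which neighbour each other, 0 of these genes was at least 2-fold lower in clone 2 than in clone 1 (1.68% of all genes). CCDC9B, near PHGR1, had 1.26 FPKM in the control, 5.28 in clone 1 and 2.97 in clone 2. It was the only neighbour at least 2-fold higher in clone 1 than in the control on that scale (1.06% of all genes). With shares this small, neither the 0 nor this single gene is a result about the neighbours. Near KRT20, 4 of 10 other genes were at least 2-fold higher in clone 2 than in clone 1 (2.51% of all genes), the reverse of KRT20. They were the hair keratin-associated genes KRTAP3-1 (4.33 FPKM in the control, 0.0775 in clone 1 and 65.5 in clone 2) and KRTAP2-3 (1.83, 0.257 and 13.9), TNS4 (42.9, 25.1 and 84), a focal adhesion protein, and AC018629.1 (4.15, 3.19 and 12.6). WNT10A near VIL1 (0.933, 0.255 and 2.13 FPKM), PDP1 near CDH17 (9.1, 6.58 and 21.2 FPKM) and TGFB1 near CEACAM5 and CEACAM6 (10.9, 3.46 and 13.5 FPKM) were also at least 2-fold higher in clone 2 than in clone 1.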

How the data were processed

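Total RNA was extracted with TRIzol, libraries were made with an Illumina TruSeq RNA kit and sequenced on an Illumina HiSeq instrument. The authors deposited 1 table of FPKM values per gene for 3 libraries. The submitters' processing notes name Trim Galore 0.3.7, STAR 2.5, Cufflinks 2.2.1, DESeq 1.22.1 and the build hg19, without saying which step made the table. The table holds Ensembl identifiers and no coordinates. Of these, 56996 matched GENCODE 29 (GRCh38) and 3508 did not, and positions given here are those of GENCODE 29.

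FPKM times the merged exon length of GENCODE 29 and the depth gave whole reads within 0.02 for all 10 members in all libraries, and for 98.7% to 98.8% of low values of single-transcript genes and 87.8% to 88.3% of low values of other genes. Exact Poisson intervals of the reads and exact conditional binomial intervals of their ratios (95%, SciPy 1.17.1) were computed, and a count of 0 was set to 3 reads where a ratio is given.

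The report names the 10 members, BEX2, in each list up to 3 genes with the largest difference between the clones and any gene 2-fold the same way in both, and the 5 genes nearest in pattern to KRT20, to LGALS4 and to the median of the members, of which 1 is not reported here. HNF4A, EPCAM, PDGFRB, AGR2, CDHR5, MYO7B, CEACAM7, GUCA2A and genes listed at 0 were named after their values were seen. The members and lists were chosen with earlier results of these data known. Ratios were taken on log2(FPKM + 1) and counted at 2-fold among the 11675 genes whose control level and clone mean averaged at least 1 FPKM. Medians of the lists used every gene of the list. The clones were compared with the control by limma 3.58.1 (R 4.3.3, eBayes with trend) with Benjamini-Hochberg adjustment, after a check on simulated data. FPKM values are not counts, so no count model was run. Alternatives were another pseudocount, scaling, filter or threshold, and leaving out each clone.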

Additional observations from a re-analysis of the deposited data

How the results depend on the processing

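The pseudocount and the filter decided how many members passed 2-fold. With 0.1 FPKM added, 7 members rather than 4 were at least 2-fold lower in clone 2 than in the control (215 rather than 86 of all 11675 genes) and 7 were so in opposite ways in the clones, and the members' median for clone 2 against clone 1 (log2) went from -3.82 to -6.10. With no pseudocount and values under 3 reads set to 3 reads, a setting chosen after seeing the data, these values were 8 (1990 of 27739 genes), 7 and -6.75, and the median of clone 2 against the control went from -0.55 to -3.08. That setting also moved the median of all genes to 0.220 (clone 1 against control) and -0.244 (clone 2 against clone 1), since it lets in many genes with few reads. With a mean of at least 5 FPKM, 6 members were kept. Of these, 5 were higher in clone 1 than in the control (42 of 6297 genes) and 5 lower in clone 2 than in clone 1 (76 of 6297 genes). The share of all genes higher in clone 1 and lower in clone 2 was counted only at the main setting (0.103%). The counts of 7 members in opposite ways thus have no share beside them, and nothing is read from them.

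The median log2 ratio of the mean of the clones to the control was 0.24, -0.01 with a mean of at least 5 FPKM, -0.55 without clone 1 and 2.56 without clone 2, so its direction depended on which clone was kept. Leaving out a clone left no residual degree of freedom and no test. The other settings, median ratio scaling, TPM scaling, no filter and a 1.5-fold threshold, left each count of members within 1.5 times, but TPM scaling took the members' median from -3.82 to -5.20 for clone 2 against clone 1 and from -0.55 to -1.18 for clone 2 against the control. Of 120 single-member ratios recomputed, 0 changed direction and 14 moved by more than the SD of the clone medians. Another pseudocount cannot turn the direction of a ratio, so nothing is read from the 0. In limma 0 genes were called under every setting, with 51 to 1578 at an unadjusted p under 0.05 and a smallest adjusted p = 0.535. No paired analysis was possible because the control and the clones share fewer than 2 replicate numbers. With 1 control library and 1 library per clone, the spread between cultures of a line is not known, and members with few reads in clone 2 (CEACAM6 with 2, CDX1 with 7, LGALS4 with 15 and CEACAM5 with 19) have wide intervals. FABP1 had 0 reads in clone 2, so its ratios to that library are only bounds.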

Other observations

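Relatives of the members, in families listed with earlier results known, differed in how far they followed them. Among 10 other CEACAM genes, CEACAM1, an adhesion receptor of epithelial and immune cells, had 0.301 FPKM in the control, 5.98 in clone 1 and 0.258 in clone 2. It reached a mean of at least 1 FPKM only through clone 1. CEACAM19 had 1.38, 0.891 and 2.01 FPKM, with clone 2 highest. CEACAM7, a surface protein of the mature colon epithelium below a mean of 1 FPKM over the groups and named after its values were seen, had 0.0795, 2.39 and 0.00791 FPKM, which were 10, 225 and 1 reads. CEACAM1 shares stretches of sequence with CEACAM5 and CEACAM6, and the part of shared reads in its values was not tested.

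Among 10 other galectins, LGALS3, an abundant galectin of epithelia, had 167 FPKM in the control, 325 in clone 1 and 110 in clone 2, while LGALS1 had 10.8, 13.5 and 19.3 FPKM and LGALS8 had 7.31, 6.59 and 8.19 FPKM. Of 8 other fatty acid-binding proteins only FABP5, the epidermal form, had a mean of at least 1 FPKM, with 51, 57.2 and 40.3 FPKM, so it was not 2-fold away from the control in either clone. Among 7 relatives of villin, VILL had 1.78, 6.43 and 2.23 FPKM, SVIL had 4.42, 6.32 and 8.65 FPKM, and CAPG, an actin-capping protein, had 8.55, 7.52 and 12.5 FPKM. Guanylin, encoded by GUCA2A and named after its values were seen, had 58 reads in clone 1 (2.86 FPKM) and 0 in the control and in clone 2.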
